A study of Drosophila melanogaster with 36 samples.

Results

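Peptidoglycan recognition proteins (PGRPs) are the family through which Drosophila detects and degrades bacterial cell wall, and pirk encodes an intracellular protein that dampens the response they start. The genes examined were the PGRP genes PGRP-SA, PGRP-SB1, PGRP-SC2, PGRP-SD, PGRP-LA, PGRP-LB, PGRP-LC, PGRP-LE and PGRP-LF together with pirk. Of these 10 genes, 7 had a probe set annotated to them alone by current symbol or synonym, and all 7 passed the filter on dim probe sets, among 6884 genes tested. PGRP-SA, PGRP-SD and PGRP-LC were not analysed here. Where a gene had several such probe sets, the one with the highest mean was taken.

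Whole adult females of Drosophila melanogaster were sampled from a nonselected line, which served as the control, and from a line selected for resistance to heat. Flies of each line were either untreated or were exposed for 1 h to 36 °C and sampled 0.25, 1, 2, 4, 8, 16, 32 or 64 h afterwards. With 2 biological replicates in each of 18 groups, the data comprised 36 arrays. The labels do not state how many populations each line held, how many flies were pooled, their age, or the hour of collection. No untreated flies accompanied the later times, so heat, age and time of day cannot be told apart in any difference from the untreated flies.

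PGRPs with an active enzyme site, among them PGRP-LB, PGRP-SB1 and the PGRP-SC proteins, are amidases that cut peptidoglycan. The others lack that activity. PGRP-LC at the cell membrane and PGRP-LE, in part inside the cell, are receptors of the IMD pathway, which activates the NF-κB factor Relish and with it antimicrobial peptide genes. PGRP-SA and PGRP-SD act in blood upstream of the Toll pathway. PGRP-LF blocks PGRP-LC, PGRP-LA does not bind peptidoglycan itself, and pirk binds IMD pathway receptors and the adaptor imd and limits signalling. Both pirk and PGRP-LB are known Relish targets in infected flies and restrain the pathway that induces them.

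Values are background-corrected intensities on the log2 scale, and a level is comparable between samples of a gene but not between genes. The log2 ratio of 3' to 5' signal of control transcripts differed by replicate number without overlap, at 2.28 ± 0.20 (SD, n = 18) in replicate 1 and 1.55 ± 0.14 (SD, n = 18) in replicate 2, and both numbers held every line and time. Transcripts of 20 male reproductive genes, expected to be low in females, summed to at most 680.8 on 35 arrays and to 3454 on the array of the selected line at 32 h, replicate 2, where 17 of the 20 were highest. The main values that use this array are also given without it. By time, the sums of these male transcripts were 332.6 to 392.2 untreated, 276.3 to 378.5 at 0.25 to 2 h and 323.9 to 378.6 at 4 h. They were 427.8 to 524.9 at 8 h, 510.9 to 680.8 at 16 h, 345.5 to 3454 at 32 h and 469.1 to 560.3 at 64 h. Eggshell transcripts of the ovary (13 markers) summed to between 83845 and 114064 in untreated flies and to between 4274 and 21183 at 64 h. In whole flies, fewer cells of a type and less RNA per cell cannot be told apart.

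Of the 7 genes, 2 differed over the 8 times after heat by limma's moderated F-test, pirk (adjusted p = 0.000119) and PGRP-LB (adjusted p = 0.000771). For comparison, 13.2% of all 8199 tested probe sets passed that test. Against untreated flies at single times, only pirk passed, at 32 h and at 64 h. These were 2 calls among 7 genes at 8 times, where 1.46% of the comparisons of all probe sets were called. By time, the share of all probe sets called was 0.756% at 0.25 h, 1.27% at 1 h, 1.17% at 2 h, 0.354% at 4 h, 1.06% at 8 h, 2.39% at 16 h, 1.1% at 32 h and 3.57% at 64 h. The median change of the 7 genes was 0.37 on the log2 scale at 32 h and 0.14 at 64 h, against -0.02 and 0.00 over all tested probe sets.

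**Figure D1:**
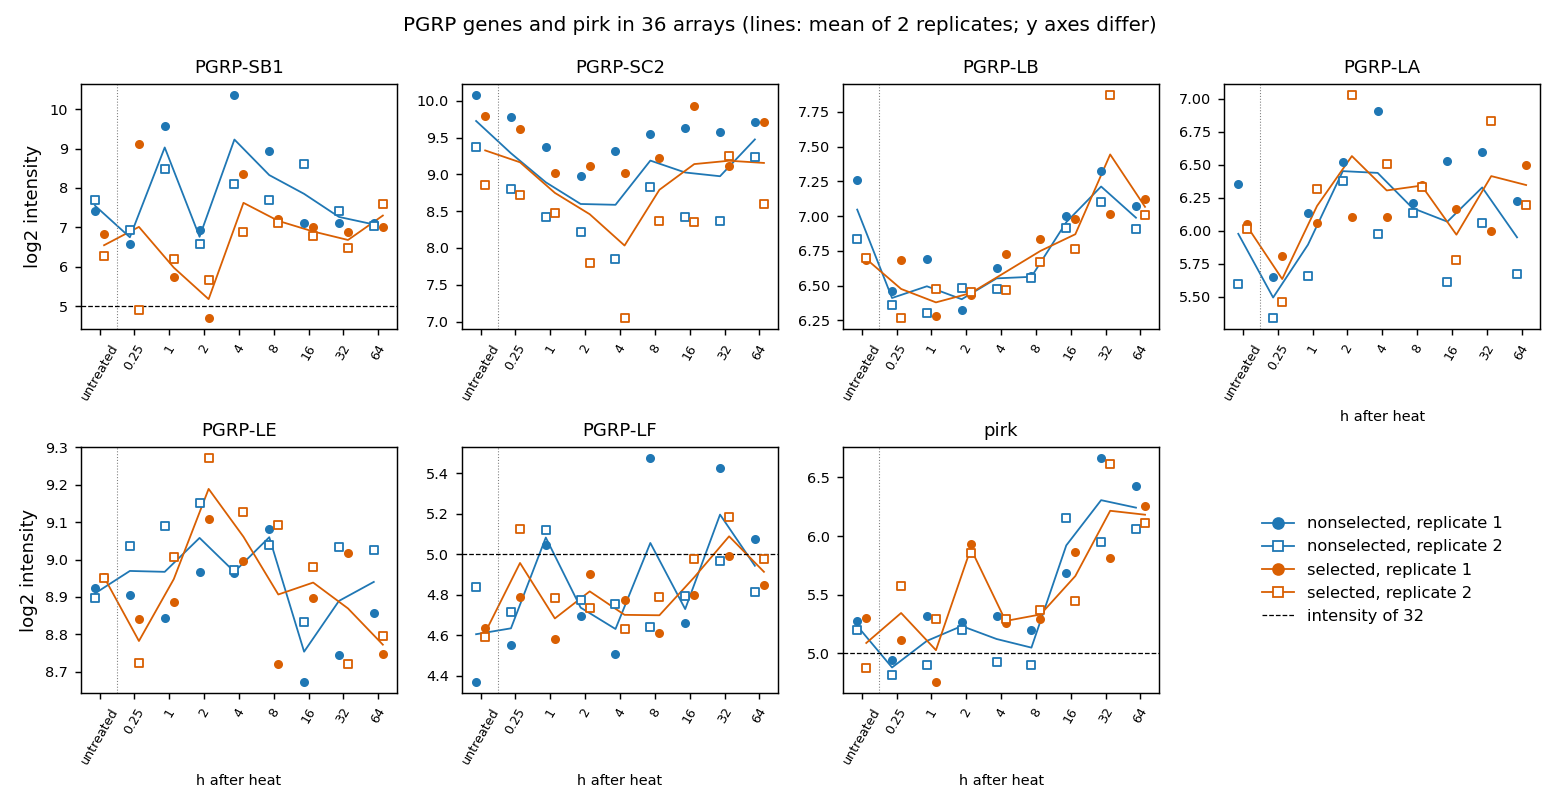
Log2 intensity (y axis) of each of the 7 measured genes on every array, by time after 1 h at 36 °C (x axis), with the lines and replicate numbers marked as in the legend. pirk lies above all 4 untreated arrays on every array at 16, 32 and 64 h, PGRP-LB is lowest at 0.25 to 2 h, and PGRP-SB1 spreads most between replicates.

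The gene pirk (CG15678, chromosome arm 2R) rose about 2-fold late after heat. In untreated flies its log2 level was 5.27 and 5.20 in the nonselected line and 5.30 and 4.87 in the selected line (replicates 1 and 2). At 16 h the nonselected line gave 5.68 and 6.16 and the selected line 5.87 and 5.45. At 32 h the corresponding levels were 6.66 and 5.95, and 5.82 and 6.61, and at 64 h they were 6.43 and 6.06, and 6.26 and 6.11. All 12 late arrays thus lay above all 4 untreated arrays, in both lines. The share of all probe sets that do so was not counted.

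The change in pirk was +1.10 (SE 0.19, 95% interval 0.70 to 1.499) at 32 h, with an adjusted p of 0.00464 by limma. After 64 h it was +1.05 (SE 0.19, interval 0.65 to 1.45), with an adjusted p of 0.00263. Since 1 untreated array lay under an intensity of 32, which was used as a floor, the fold is given as at least 2.10 for 32 h and at least 2.03 for 64 h. At 16 h the fitted change was +0.63 (interval 0.23 to 1.03, adjusted p = 0.101), which did not pass. The mean of the 16, 32 and 64 h samples exceeded that of untreated flies by 0.93 (interval 0.60 to 1.25, adjusted p = 0.00107), and by 0.86 without the array with male transcripts (adjusted p = 0.000895). In that comparison pirk was the 1 gene of the 7 called, and 5.07% of all probe sets were called, 3.34% as higher.

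The fitted changes of pirk were positive in each replicate number alone, with fewer calls. At 32 h replicate 1 arrays gave +0.95 and replicate 2 arrays +1.25 (adjusted p = 0.106 and 0.0897). At 64 h both gave +1.05, which passed in replicate 1 (0.0345) and not in replicate 2 (0.150). Late against untreated, replicate 2 alone gave +1.02 (0.0581). Without the 32 h array of the selected line that carried male transcripts, the 32 h change was +0.90 (adjusted p = 0.0250). Leaving out the 32 h array of the nonselected line, replicate 1, raised the adjusted p at 32 h to 0.0613, while the call at 64 h held when any 1 array was left out.

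Before 16 h pirk did not pass the test at any time. Its means were 5.11 ± 0.33 at 0.25 h, 5.07 ± 0.28 at 1 h, 5.56 ± 0.38 at 2 h, 5.20 ± 0.18 at 4 h and 5.19 ± 0.21 at 8 h (SD, n = 4), against 5.16 ± 0.20 untreated. The means other than that at 2 h lay closer together than their SDs. At 2 h the lines did not overlap, with 5.27 and 5.20 in the nonselected and 5.93 and 5.85 in the selected line (replicates 1 and 2), where the pair of the selected line lay above all 4 untreated arrays. No difference in response between the lines passed for pirk (interaction F-test, adjusted p = 1.00). In order of mean the late times followed as 16 h (5.79 ± 0.30), 64 h (6.21 ± 0.17) and 32 h (6.26 ± 0.44), the last 2 of which did not differ beyond their spread.

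A second comparison set the 12 late arrays (16, 32 and 64 h) against the 12 arrays at 0.25, 1 and 2 h and so used no untreated fly. Here 2 of the 7 genes rose, pirk and PGRP-LB, and none fell. Among all probe sets 35.3% passed in this comparison, 18.2% as higher and 17.1% as lower, so a call in it is common. The lowest, median and highest level of pirk were 4.76, 5.23 and 5.93 early, and 5.45, 6.08 and 6.66 late. The difference was +0.84 (interval 0.61 to 1.07, adjusted p = 6.9e-06), and the early and late arrays overlapped. It was +0.77 without the array with male transcripts, and +0.79 with the early arrays under an intensity of 32, 2 at 0.25 h and 2 at 1 h, set to 32.

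The amidase gene PGRP-LB (CG14704, arm 3R) did not overlap between the early and the late arrays. Its early levels had a lowest, median and highest of 6.27, 6.45 and 6.69, and its late levels 6.76, 7.01 and 7.87. Every late array thus lay above every early array. The share of all probe sets that separate in this way was not counted, and 35.3% passed the test of this comparison. The difference was +0.65 (SE 0.09, interval 0.48 to 0.83, adjusted p = 6.32e-06), a 1.57-fold change, and it was +0.58 (adjusted p = 3.49e-06) without the array with male transcripts. Replicate 1 arrays alone gave +0.61 and replicate 2 arrays +0.70.

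Untreated flies held PGRP-LB at levels between these groups. The nonselected line gave 7.26 and 6.83 and the selected line 6.69 and 6.70 (replicates 1 and 2), so the first of these exceeded most late arrays and the last pair touched the early range. Mean levels were 6.44 ± 0.18 at 0.25 h, 6.44 ± 0.19 at 1 h, 6.42 ± 0.07 at 2 h, 6.57 ± 0.12 at 4 h and 6.66 ± 0.13 at 8 h (SD, n = 4). The mean then reached 6.91 ± 0.11 at 16 h, 7.33 ± 0.39 at 32 h and, at 64 h, 7.03 ± 0.10, against 6.87 ± 0.27 untreated. Between times next to each other in the order of these means the arrays overlapped throughout, and the means of 0.25, 1 and 2 h lay closer together than their SDs.

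No single time separated PGRP-LB from untreated flies in the test. The changes were -0.43, -0.43 and -0.44 at 0.25, 1 and 2 h (adjusted p = 0.412, 0.258 and 0.260), each with an interval below 0, and +0.46 at 32 h (adjusted p = 0.167). The highest of all 36 levels, 7.87, came from the array with male transcripts, and without it the 32 h change was +0.24 (adjusted p = 0.697). Without the other 32 h array of the selected line, replicate 1, it was +0.67 (adjusted p = 0.00622).

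Markers of other tissues moved between the same periods. The 9 haemocyte markers on the array, genes of the blood cells, summed to between 378.2 and 864.8 on the early arrays and to between 714.9 and 1869 on the late arrays. Of the 6 tested, 5 rose late against early, and 3 of the 9 never reached an intensity of 32. Eggshell marker sums were 30151 to 104258 early and 4274 to 85002 late, and 9 of 13 fell. Of 11 midgut markers 4 rose and 2 fell, and of 7 tested fat body markers 2 rose and 1 fell. Sums of the 20 male reproductive genes were 276.3 to 378.5 early and 345.5 to 3454 late, and the 1 of them tested rose by 1.31. Among all probe sets 18.2% rose and 17.1% fell. The part of these tissues in the values of pirk and PGRP-LB was not tested.

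**Figure D2:**
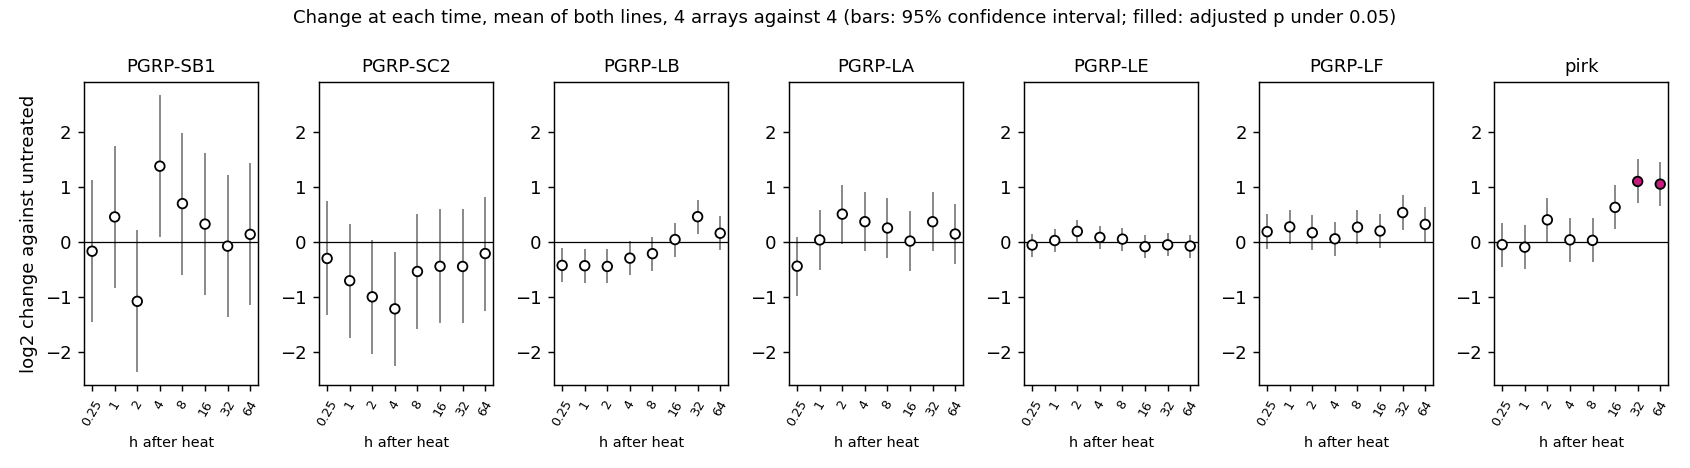
Change of each measured gene from untreated flies (log2, mean of both lines, y axis) at each time after heat (x axis), with 95% intervals from limma as error bars and filled symbols where the adjusted p is under 0.05. Only pirk at 32 h (+1.10) and 64 h (+1.05) is filled, and the intervals of PGRP-SB1 and PGRP-SC2 are the widest.

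The secreted amidase gene PGRP-SC2 (CG14745, arm 2R, next to PGRP-SC1b in the Release 6 gene order) had its lowest levels at 2 and 4 h, without passing the test. Untreated levels were 10.08 and 9.37 in the nonselected line and 9.79 and 8.86 in the selected line (replicates 1 and 2). At 2 h they were 8.98 and 8.22, and 9.12 and 7.80, and at 4 h they were 9.32 and 7.86, and 9.02 and 7.05. Replicate 2 was lower than replicate 1 in 17 of 18 groups, by 0.97 on average, so arrays of the groups overlapped across the numbers. Within each number the 4 h arrays lay below the untreated arrays of the same line.

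The fitted change of PGRP-SC2 was -0.997 at 2 h (interval -2.03 to 0.04, adjusted p = 0.755) and -1.22 at 4 h (interval -2.25 to -0.18, adjusted p = 0.861). With the replicate number as a block in limma the same changes had adjusted p = 0.0139 and 0.00632, and the F-test over the 8 times gave 0.00449 in place of 0.723. Replicate 1 arrays alone gave -0.89 at 2 h and passed (adjusted p = 0.0233, and 0.0150 in the F-test over the series), and replicate 2 arrays alone gave -1.10 (adjusted p = 0.161). Replicate 1 arrays alone gave -0.77 at 4 h and replicate 2 arrays -1.66 (adjusted p = 0.118 and 0.0794). By 64 h the mean was 9.31 ± 0.53 (SD, n = 4), against 9.52 ± 0.53 untreated.

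Of the close relatives of PGRP-SC2, the near-identical genes PGRP-SC1a and PGRP-SC1b share 2 probe sets, which cannot be assigned to either gene and were examined after their values had been seen. One fell by 2.39 at 4 h (adjusted p = 0.0162) and by 2.03 at 8 h (adjusted p = 0.0275). Its level was 9.51 ± 0.84 (SD, n = 4) untreated, 7.11 ± 0.98 at 4 h, 7.47 ± 0.61 at 8 h and 8.73 ± 0.39 at 64 h. The other fell by 1.65 at 4 h (adjusted p = 0.0246), and its change at 8 h was -1.31 (adjusted p = 0.0660). Midgut markers moved in the same interval. The sum of 11 digestive enzyme genes was 30519 to 40240 untreated and 20459 to 25817 at 4 h, with 2 of the 11 called as lower, and their part in the PGRP-SC values was not tested.

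PGRP-SB1 (CG9681, arm 3L, next to PGRP-SB2), another secreted amidase gene, varied most of the 7, with a residual SD of 0.95 and levels from 4.70 to 10.36. In the nonselected line replicates 1 and 2 gave levels of 7.41 and 7.69 untreated. After 0.25 h they gave 6.58 and 6.92, after 1 h 9.57 and 8.49, after 2 h 6.94 and 6.58, and after 4 h 10.36 and 8.09. After 8 h they gave 8.95 and 7.71, after 16 h 7.10 and 8.60, after 32 h 7.11 and 7.42, and after 64 h 7.10 and 7.04. The high arrays of this line were therefore those at 1 and 4 h and single replicates at 8 and 16 h.

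In the selected line the levels of PGRP-SB1 were 6.83 and 6.26 untreated. After 0.25 h they were 9.11 and 4.92, after 1 h 5.75 and 6.21, after 2 h 4.70 and 5.66, and after 4 h 8.36 and 6.88. After 8 h they were 7.22 and 7.11, after 16 h 7.02 and 6.77, after 32 h 6.89 and 6.47, and after 64 h 7.01 and 7.59. The lower replicate at 0.25 h and replicate 1 at 2 h were under an intensity of 32. With such values set to 32, the replicates at 0.25 h lay at least 4.11 apart, the largest gap of any group. Against untreated flies the greatest difference was +1.38 at 4 h (interval 0.09 to 2.66, adjusted p = 1.00), and replicate 1 gave +2.24 where replicate 2 gave +0.51.

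PGRP-SB1 was the 1 gene of the 7 that differed between the lines over the 9 times, where 12.2% of all probe sets did and 6.06% were lower in the selected line. It was lower in the selected line by 1.05 on the log2 scale (a difference of -1.05, SE 0.29, interval -1.66 to -0.44), a 2.07-fold difference with an adjusted p of 0.0231. The mean was lower at 7 of the 9 times, as was that of PGRP-SC2, which was not called. The arrays of the lines did not overlap at 6 of the 9, against 0 (PGRP-SC2) to 5 (PGRP-LE) for the rest of the 7 genes. Such counts were not made over all probe sets, so they do not set PGRP-SB1 apart. Replicate 1 arrays alone gave -0.91 (adjusted p = 0.288) and replicate 2 arrays -1.19 (adjusted p = 0.00412). The call held when any 1 array was left out, with adjusted p up to 0.0460 (-1.03 and 0.0378 without the array with male transcripts).

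In untreated flies alone the line difference of PGRP-SB1 was -1.003 (interval -2.82 to 0.82) with adjusted p = 1.00. No probe set passed that comparison, while 148 had an unadjusted p under 0.05 by limma. The line differences of PGRP-SB1 by time ran from -3.05 at 1 h to +0.26 at 0.25 h. The test for a heat response that differs between the lines called 0 of the 7 genes and 0% of all probe sets, 36 of which, none of them among the 7, had an unadjusted p under 0.05. Fat body markers also differed between the lines, with 4 of 7 tested lower in the selected line and sums of 52033 to 73864 against 31624 to 66171, as did 3 of 11 midgut markers. Their part in the PGRP-SB1 difference was not tested.

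The spread of PGRP-SB1 between replicates went with that of 2 of 6 antimicrobial peptide genes, DptB and Mtk. In the selected line at 0.25 h, where PGRP-SB1 was 9.11 and 4.92, DptB, which encodes the antibacterial peptide Diptericin B, was 10.76 and 4.05 and Mtk, which encodes the antifungal peptide Metchnikowin, was 11.97 and 2.18. In the nonselected line at 16 h the order was turned, with DptB at 6.44 and 10.79 and Mtk at 9.27 and 11.57. Over the 18 groups, replicate 1 minus replicate 2 of PGRP-SB1 correlated with that of DptB at Pearson's r = 0.943 and Spearman's rho = 0.897. With Mtk it correlated at r = 0.949 and rho = 0.897. All 4 permutation p-values were 1e-05, the smallest that the permutations can give, and 0.00021 after adjustment over 42 relations, of 7 genes with 6 peptide genes. The permutations treat the 18 groups as independent, while deviations from group means correlated at a median of 0.331 between groups. With AttD, Drs, Def and Listericin r was 0.504, 0.401, 0.276 and 0.368, and none passed (adjusted permutation p = 0.310, 0.446, 0.599 and 0.446).

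The relation did not rest on the extreme groups. Values under an intensity of 32 occurred on 8 arrays for DptB, 5 for Mtk and 2 for PGRP-SB1. With these set to 32, r was 0.929 with DptB and 0.942 with Mtk (adjusted permutation p = 0.00021 for each). Without the 2 groups farthest from the median of the peptide gene's difference, r of the values as deposited was 0.927 with DptB and 0.861 with Mtk. Within the nonselected line r was 0.978 and 0.919, and within the selected line 0.950 and 0.977 (n = 9 each). Within replicate 1 arrays the levels themselves correlated at 0.950 with DptB and 0.889 with Mtk, and within replicate 2 arrays at 0.803 and 0.832. DptB and Mtk were lower in the selected line by a fitted -1.24 and -1.47, neither of which passed (adjusted p = 0.145 for each). The relations were chosen after values had been seen. How many of all probe sets follow PGRP-SB1 this closely between replicates was not counted, so the relation is not shown to be particular to DptB and Mtk.

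Of the other 40 relations, 2 passed for both coefficients. PGRP-LB correlated with Listericin, an antibacterial peptide gene, at r = 0.695 (adjusted permutation p = 0.00546) and rho = 0.713 (adjusted p = 0.0143), and at 0.702 without the 2 farthest groups. Within the lines r was 0.833 in the nonselected and 0.679 in the selected line, and the levels themselves correlated at 0.470 within replicate 1 and 0.503 within replicate 2 arrays. PGRP-LA correlated with Listericin at r = 0.643 and rho = 0.659 (adjusted permutation p = 0.0385 for r), and at r = 0.571 without the 2 farthest groups. Its r was 0.179 in the nonselected and 0.658 in the selected line, and 0.181 and 0.612 for the levels within replicate 1 and replicate 2 arrays. Without the selected line at 32 h, which held the array with male transcripts, r with Listericin was 0.722 for PGRP-LB and 0.573 for PGRP-LA.

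**Figure D3:**
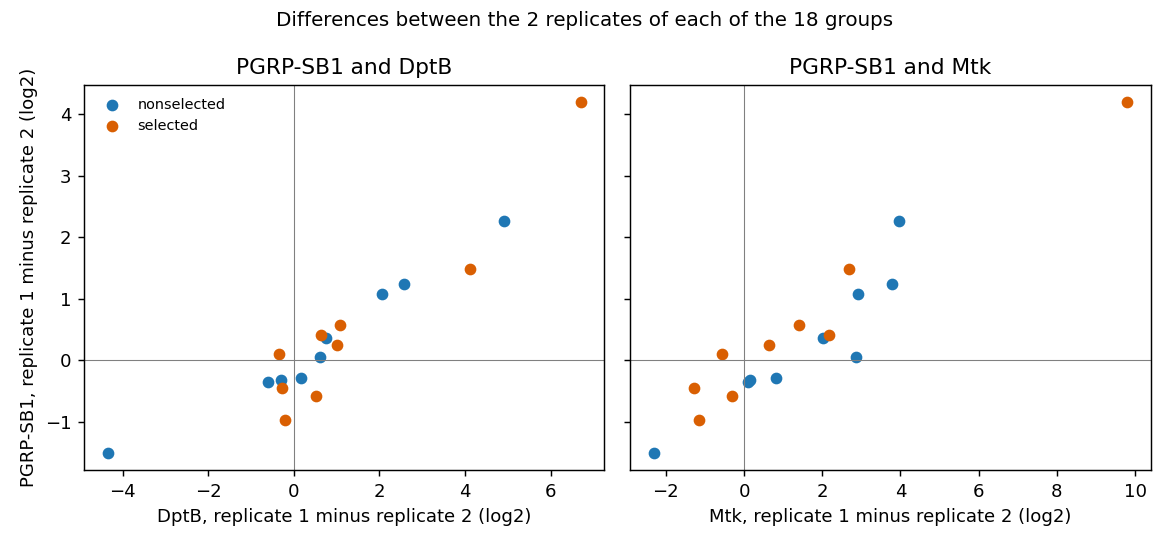
Replicate 1 minus replicate 2 of PGRP-SB1 (log2, y axis) against the same difference of DptB (left) and of Mtk (right, both log2, x axes) in the 18 groups of line and time. The points rise together (r = 0.943 and 0.949), with the selected line at 0.25 h at the upper right.

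The receptor gene PGRP-LE (CG8995, arm X) varied least. Its 36 levels spanned 0.60, from 8.67 to 9.27, with a residual SD of 0.12. Its changes from untreated flies ran from -0.09 at 16 h to +0.19 at 2 h, none passed, and the 95% intervals reached no further than -0.29 and +0.40. Late against early it changed by -0.13 (interval -0.25 to -0.00447, adjusted p = 0.0974), which passed with the replicate block (adjusted p = 0.0439) and in 2 of 36 fits that left out 1 array, those without replicate 1 of the selected or replicate 2 of the nonselected line at 32 h (adjusted p down to 0.0435). Without the array with male transcripts it was -0.10 (adjusted p = 0.200).

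PGRP-LF and PGRP-LA flank PGRP-LC in the Release 6 gene order on arm 3L. PGRP-LF (CG4437), the inhibitor of PGRP-LC, lay under an intensity of 32 on 29 of 36 arrays, so its differences are close to the background. Its level was 4.61 ± 0.19 (SD, n = 4) untreated and 5.14 ± 0.21 at 32 h. The 4 arrays at 32 h lay above all 4 untreated arrays, a pattern whose share over all probe sets was not counted. The change of +0.53 (interval 0.22 to 0.85) had an adjusted p of 0.1001. It passed in 4 of 36 fits that left out 1 array (adjusted p down to 0.0389), and without the array with male transcripts it was +0.49 (adjusted p = 0.308). With intensities under 32 set to 32, this was a 1.11-fold difference.

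PGRP-LA (CG32042) had 2 probe sets, the dimmer of which did not pass the filter. The brighter one was at 6.005 ± 0.31 (SD, n = 4) untreated, 5.56 ± 0.21 at 0.25 h and 6.51 ± 0.39 at 2 h. The changes of -0.44 at 0.25 h (adjusted p = 0.998) and +0.51 at 2 h (adjusted p = 0.788) did not pass. At 2 h replicate 1 arrays gave +0.11 and replicate 2 arrays +0.90 (adjusted p = 0.0354), so the value rests mainly on replicate 2.

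Of the PGRP genes outside the 10, PGRP-SB2 was at 2.28 to 2.78 on all arrays and never reached an intensity of 32. Among the 7 genes, the 2 that changed over the series had the most alike profiles, with r = 0.765 between PGRP-LB and pirk over the 18 group means, and 0.737 without the array with male transcripts. The other 20 pairs ran from -0.56 to 0.54. PGRP-LB and pirk were singled out by a test on these same arrays, so their r is no separate support. The 3 tested genes closest to PGRP-LB over the 18 means were Marf (r = 0.944), Pur-alpha (0.892) and ND-PDSW (0.883), and without that array their r was 0.800, 0.724 and 0.855. Those closest to pirk were osi (0.888), CG34325 (0.876) and bol (0.873), with 0.874, 0.843 and 0.844 without it.

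Downstream of the receptors, the adaptor gene imd rose early after heat. Of 11 tested IMD pathway genes imd alone passed at single times, with +0.69 at 0.25 h (adjusted p = 0.00253), +0.92 at 1 h (4.69e-05), +0.94 at 2 h (6.50e-05) and +0.58 at 4 h (0.0259). Its level was 4.47 ± 0.12 (SD, n = 4) untreated, under an intensity of 32 on all 4 arrays, and 5.40 ± 0.38 at 2 h. It passed the filter on dim probe sets only through arrays at 0.25 to 4 h, since its arrays at all other times lay under 32. Its entry into the test and its calls against untreated flies and late against early thus share those high arrays. With values under 32 set to 32, the calls at 0.25 and 4 h were lost, and the folds are at least 1.31 at 1 h and at least 1.33 at 2 h. From 8 h on, when pirk was at its untreated level or rising, imd was back at 4.41 to 4.67 in the mean.

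Late against early, imd fell, with all 12 late arrays under an intensity of 32. The fitted change was -0.79 (adjusted p = 1.9e-08) and, with values under 32 set to 32, -0.32 (adjusted p = 0.000158). Tab2, whose protein partners the kinase Tak1, fell by 0.19 (adjusted p = 0.00489). These were 2 of 11 IMD pathway genes, or a share close to the 17.1% of all probe sets called lower in this comparison. Both genes were lower in the selected line, imd by a difference of -0.21 (adjusted p = 0.0175) and Tab2 by one of -0.19 (adjusted p = 0.00586). In that comparison they were the 2 genes of the 11 called, and 6.06% of all probe sets were called lower. The call of imd was lost with values under 32 set to 32 (-0.13, adjusted p = 0.0677) and in either replicate number alone (0.0506 and 0.104), and that of Tab2 in replicate 1 alone (0.191). Rel, which encodes Relish, changed by +0.58 at 1 h (adjusted p = 0.435). The median change of the 11 genes was 0.19 at 1 h and -0.10 late against early, against 0.04 and -0.03 over all tested probe sets.

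Besides pirk, 7 other genes listed here as inhibitors of the IMD pathway were tested. By limma 0 of their 56 comparisons at single times passed, and 1 had an unadjusted p under 0.05. Late against early 3 of the 7 fell, casp by 0.17 (adjusted p = 0.0245), POSH by 0.31 (0.00459) and Charon, also called pickle, by 0.29 (0.00729), where 17.1% of all probe sets were lower. Their median change was -0.03, the same as over all tested probe sets.

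In the Toll pathway, on which PGRP-SA and PGRP-SD act, SPE was higher than untreated at 8, 16 and 32 h. SPE encodes the protease that activates the ligand Spätzle. Of 15 tested genes SPE alone passed at single times, with +1.52 at 8 h (adjusted p = 0.00287), +1.07 at 16 h (0.0218) and +1.17 at 32 h (0.0258). Without the array with male transcripts the 32 h change was +1.09 and no longer passed (adjusted p = 0.0852). Of 36 fits that left out 1 array, 6 lost the call at 16 h and 5 that at 32 h. No gene of the 15 was called at 64 h. Late against untreated, SPE (+1.02, adjusted p = 0.00449) and grass, an upstream protease gene (+0.55, adjusted p = 0.0234), were higher and none was lower. These were 2 of the 15 genes, where 3.34% of all probe sets were called higher.

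Late against early 7 of the 15 Toll pathway genes rose and 2 fell, where 18.2% of all probe sets were higher and 17.1% lower. Those that rose were SPE (+1.42), GNBP2 (+0.87), nec (+0.75), which encodes a serpin, psh (+0.69), a protease gene, GNBP3 (+0.49), which encodes a glucan sensor, grass (+0.39) and dl (+0.30), which encodes the NF-κB factor Dorsal. The receptor gene Tl (-0.32) and the kinase gene pll (-0.34) fell. The median over the 15 was -0.02, against -0.03 for all tested probe sets. In the line comparison dl was higher in the selected line by 0.28 (adjusted p = 0.0277). It was the 1 gene of the 15 called there, where 12.2% of all probe sets were called in either direction.

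Among 6 tested antimicrobial peptide genes only Listericin passed at single times. It rose by 2.01 at 8 h (adjusted p = 0.0384), 1.97 at 16 h (0.0259) and 2.42 at 64 h (0.00463), and its change at 32 h was +1.84 (0.0661). The call at 8 h was lost without the filter on dim probe sets (adjusted p = 0.0614) and in 11 of 36 fits that left out 1 array. Late against early Listericin rose by 1.12 (adjusted p = 0.00349) and Drs, which encodes Drosomycin, by 0.50 (adjusted p = 0.0430). These were 2 of the 6 genes, where 18.2% of all probe sets were called higher. At 8 h, when SPE was called, the changes of pirk (+0.03, interval -0.37 to 0.43) and PGRP-LB (-0.21, interval -0.52 to 0.10) had intervals that held 0.

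**Figure D4:**
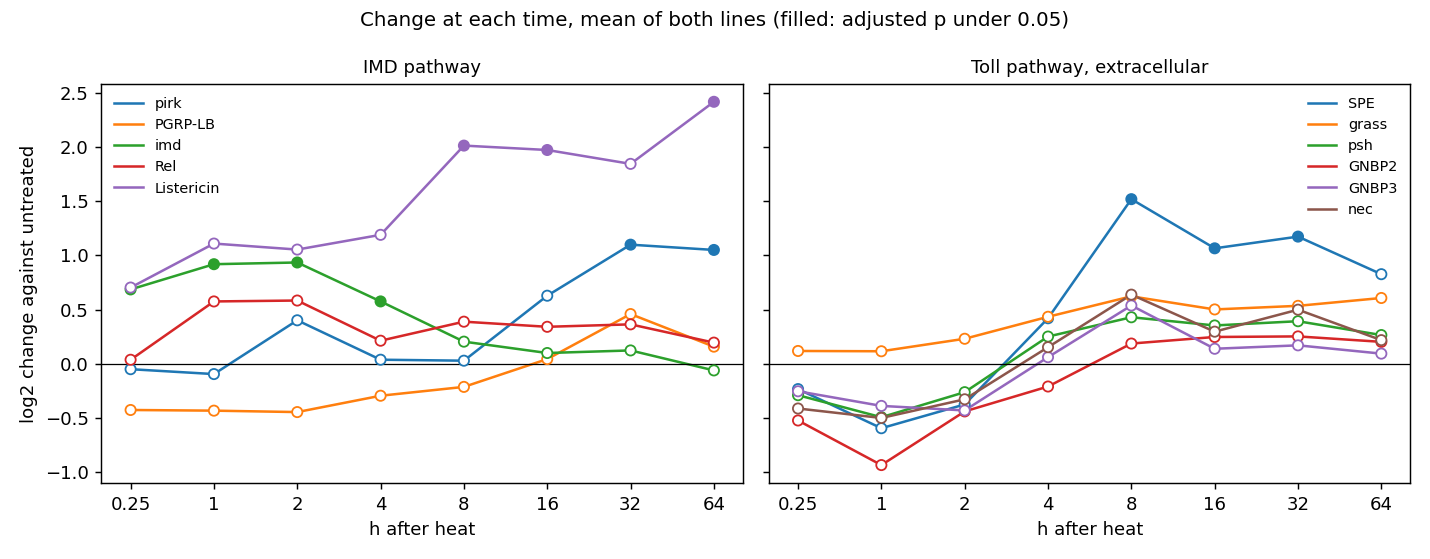
Change from untreated flies (log2, y axis) at each time after heat (x axis), mean of both lines, of pirk, PGRP-LB, imd, Rel and Listericin (left) and of SPE, grass, psh, GNBP2, GNBP3 and nec of the Toll pathway (right), filled where the adjusted p is under 0.05. imd is filled at 0.25 to 4 h, SPE at 8, 16 and 32 h, Listericin at 8, 16 and 64 h and pirk at 32 and 64 h.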

How the data were processed

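The 36 arrays measured biotin-labelled total RNA. Deposited intensities, on a linear scale, had been computed by the authors with GCRMA (version not given), per the submitters' processing notes. GCRMA corrects background by probe sequence, normalizes between arrays and summarises probe sets. Values ran from 1.15 to 46856, and log2 was taken without a pseudocount. Scanner files and detection calls were not used here. Arrays have no read depth, and precision is limited by their number. The labels call the replicates biological without saying that they came from separate cultures, so p-values measure only the spread between these samples, which may be technical.

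Array controls aside, 13966 probe sets were present. GEO's platform annotation gave 1 gene symbol for 12443 of them, several for 327 and none for 1196. Symbols were updated with the RefSeq gene table of Release 6 plus ISO1 MT, which matched 12394. That table served for names and gene order only. The build of the authors' probe sets is not given in the sources used here, and no coordinates are printed.

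Tests covered the 8199 probe sets whose 4 highest arrays averaged 5 or more in log2 units (intensity 32). In R 4.3.3, limma 3.58.1 fitted a linear model with 18 group coefficients (18 residual degrees of freedom), with Benjamini-Hochberg adjustment over all tested probe sets and a threshold of 0.05. Adjusted p-values are limma's unless a permutation is named. Permutation tests were 2-sided, with 100000 permutations. All groups share 1 estimate of the spread. The script was tested on simulated data. Alternatives were the replicate number as a block or alone, leaving out each array, other filters, quantile normalization, a floor at 32, trend and robust options, the mean of both PGRP-LA probe sets and, added after seeing the data, leaving out 32 h, a floor at 32 for the replicate differences, and profiles without the array with male transcripts.

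The genes, lists and tests were chosen with earlier results of these data known. All measured genes of the 10 are named, and genes of the pathway lists that passed a test. DptB, Mtk, the other peptide genes, Rel and the shared PGRP-SC1 probe sets were named after their values were seen.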

Additional observations from a re-analysis of the deposited data

Results flagged for a closer look

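In 63 checks of 4 arrays each (7 genes at 9 times), 3 single arrays stood apart from the other 3 of their time by Dixon's test, where chance gives about 1 in 20. PGRP-SB1 was 7.59 at 64 h in replicate 2 of the selected line, above the other arrays at 7.01 to 7.10. PGRP-LE was 8.72 at 8 h in replicate 1 of the selected line, below the other 3, and pirk was 4.93 at 4 h in replicate 2 of the nonselected line, below the other 3. The call of pirk at 64 h held without the first of these arrays.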

How the results depend on the processing

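Counts of called genes among the 7 kept within 1.5 times their value under most alternatives. Calls at single times numbered 2. They were 4 with the replicate block, 1 in replicate 2 arrays alone (PGRP-LA at 2 h), and 1 to 4 when each array was left out, moving without the nonselected 32 h replicate 1 and without the selected 32 h replicate 1. Late against untreated, the 1 call became 0 in replicate 2 arrays alone. Between the lines, the 1 call became 0 in replicate 1 arrays alone and 2 in replicate 2 arrays alone. Leaving out each array gave 2 to 3 genes over the series and 2 to 3 late against early, 1 late against untreated and 1 between the lines throughout, and 0 for the interaction. With the replicate block 3 genes passed over the series and 3 late against early. The block changed no call of pirk, PGRP-LB or PGRP-SB1. Deviations from group means correlated at a median of 0.331 between groups (153 pairs, from -0.434 to 0.782, 121 of them over 0.1), and the labels give only the numbers. Among 1608 alternative values of 36 named changes, 1539 kept their direction and side of the threshold, 56 lost the call, 13 gained it and 0 reversed. Most of these values came from fits that left out 1 array, often one outside the contrast, which leaves its estimate unchanged. Changes never called counted as kept while they stayed uncalled, so the share kept does not measure how firm the calls are. Without 32 h, pirk passed at 16 h (adjusted p = 0.0340). In replicate 2 arrays alone pirk missed the threshold over the series (0.0858), and in replicate 1 arrays alone PGRP-LB did (0.0533). Leaving out 1 array ended the call of imd at 4 h in 7 cases, of SPE at 16 h in 6 and at 32 h in 5, and of Listericin at 16 h in 6. Without the selected untreated replicate 1, SPE late against untreated had an adjusted p of 0.0579. The planned promoter motif search was not run, since no promoter sequences were at hand. Intensities under 32 limit PGRP-LF (29 arrays), AttD (34), DptB (8), pirk (7, of which 1 untreated), Mtk (5), PGRP-SB1 (2) and imd, whose untreated and late arrays all lie there. They also limit GNBP2, dl and psh of the Toll pathway.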
